A study of Mus musculus with 24 samples.

Results

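Genes of the mitochondrial respiratory chain and the ATP synthase were followed in mouse B-cell leukemia cells after induced loss of Foxo1 or exposure to the compound AS1842856. Members were taken by symbol: the Nduf, Uqcr, Atp5 and Cox4 to Cox8 gene families, Sdha, Sdhb, Sdhc and Sdhd, Cycs, Cyc1 and every gene of the mitochondrial genome, without pseudogene symbols. A mean deposited log2 value of at least 3.46 was required. Of 41444 genes in the deposited tables, 134 symbols matched and 102 were members, of which 87 are encoded in the nucleus and 15 on mitochondrial DNA. The nuclear members comprised 35 complex I subunits (7 core, 28 supernumerary), 7 complex I assembly factors, 4 complex II subunits, 9 complex III subunits, cytochrome c, 14 complex IV subunits, 15 ATP synthase subunits and 2 further genes named for the ATP synthase. The mitochondrial members were the 13 mRNAs and the 2 rRNAs.

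Of the 32 matching genes left out, 26 were listed at 0 in every library, 3 fell below the minimum (Cox4i2, Cox8b and Ndufa4l2) and 3 were pseudogenes. The genes at 0 included all 22 mitochondrial tRNAs and Ndufa9, a complex I subunit that all respiring cells use, so a listed 0 is no measure of absence here. The lowest mean among members was 4.24 for Ndufa4, a subunit of complex IV despite its name, and the highest mean below the minimum was 0.36 for Cox4i2, the lung isoform of a complex IV subunit. No member therefore lay close to the minimum.

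The respiratory chain passes electrons from NADH at complex I and from succinate at complex II through coenzyme Q to complex III, and from there through cytochrome c to oxygen at complex IV. Complexes I, III and IV pump protons, and the ATP synthase makes ATP as protons flow back. Most subunits are encoded by nuclear genes and imported, whereas the mitochondrial genome encodes a small set of core subunits of complexes I, III and IV and the ATP synthase, transcribed as long precursors from both strands. Dividing lymphoid cells use the chain for ATP, for reoxidising NADH and for aspartate synthesis.

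All 24 libraries came from murine BCR-ABL1+ B-ALL cells carrying Cre-ERT2 and Foxo1 fl/fl, a bone marrow-derived leukemia model driven by the BCR-ABL1 fusion kinase, and all groups share these alleles. Each of 8 groups had 3 libraries: AS1842856 at 70 nM and its DMSO vehicle, and 4-hydroxytamoxifen (4-OHT) at 200 nM and its EtOH vehicle, each after 24 h and 48 h. AS1842856 is a small-molecule FOXO1 inhibitor, and 4-OHT activates the Cre recombinase so that the floxed Foxo1 alleles are cut. The labels describe no group with 4-OHT but without floxed alleles or Cre among these libraries, so that effects of 4-OHT or Cre activity and of Foxo1 loss cannot be told apart. The labels do not say whether replicates were separate cultures, and p-values measure the spread between these libraries.

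Foxo1 itself had values of 8.02 to 8.16 in the 4-OHT libraries at 48 h, against 10.02 to 10.11 in the EtOH libraries at 48 h, and at 24 h of 7.99 to 8.27 in the 4-OHT libraries, against 9.80 to 9.88 in the EtOH libraries. All 13 B-lineage markers were measured above the minimum in the series, among them Cd79a and Pax5. Sequencing depth is unknown, since the values are log2 expression values after normalisation and not counts, and library medians lay between 9.16 and 9.23. In such bulk RNA, fewer cells of a type and less RNA per cell cannot be told apart. Differences are treated minus vehicle on the deposited log2 scale, tested with limma over 11470 genes and called at a Benjamini-Hochberg adjusted p under 0.05. Where both tests called a member in 4-OHT at 48 h, the median ratio of this difference to the log2 fold change in the authors' deposited table was 0.66, so the differences given here are the smaller ones.

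Nuclear-encoded respiratory chain genes fell broadly 48 h after 4-OHT, while mitochondrially encoded RNAs were called higher or not called. Of the 87 nuclear members, 53 fell and 4 rose, and of the 15 mitochondrial members, 9 rose and none fell. Among all tested genes, 25.8% fell and 25.0% rose in that comparison, so the 60.9% of nuclear members that fell and the 60% of mitochondrial members that rose are to be read against those shares. The median difference was -0.16 for nuclear members and 0.19 for mitochondrial members, beside 0.0054 for all tested genes. Genes with higher values were called lower more often in general: of the tested genes at or above the median value, 35.5% fell and 24.5% rose, and of the 72 nuclear members in that range 62.5% fell. At 24 h of 4-OHT, 9 nuclear members fell and 1 rose, and 1 mitochondrial member fell, beside 13.7% of all genes lower and 15.7% higher, so that the 10.3% of nuclear members lower at 24 h were near the background. Among the tested genes of the upper range, 19.5% fell and 15.9% rose at 24 h, and 9.7% of the 72 nuclear members in that range fell. In the fit without replicate pairing, AS1842856 gave no call among the members at either time, beside 0.00872% of all genes called at 24 h and, at 48 h, 1.88% higher and 2.97% lower (4.86% in all). With the replicate number as a block, 6 members were called higher at 48 h, beside 6.66% of all genes.

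**Figure D1:**
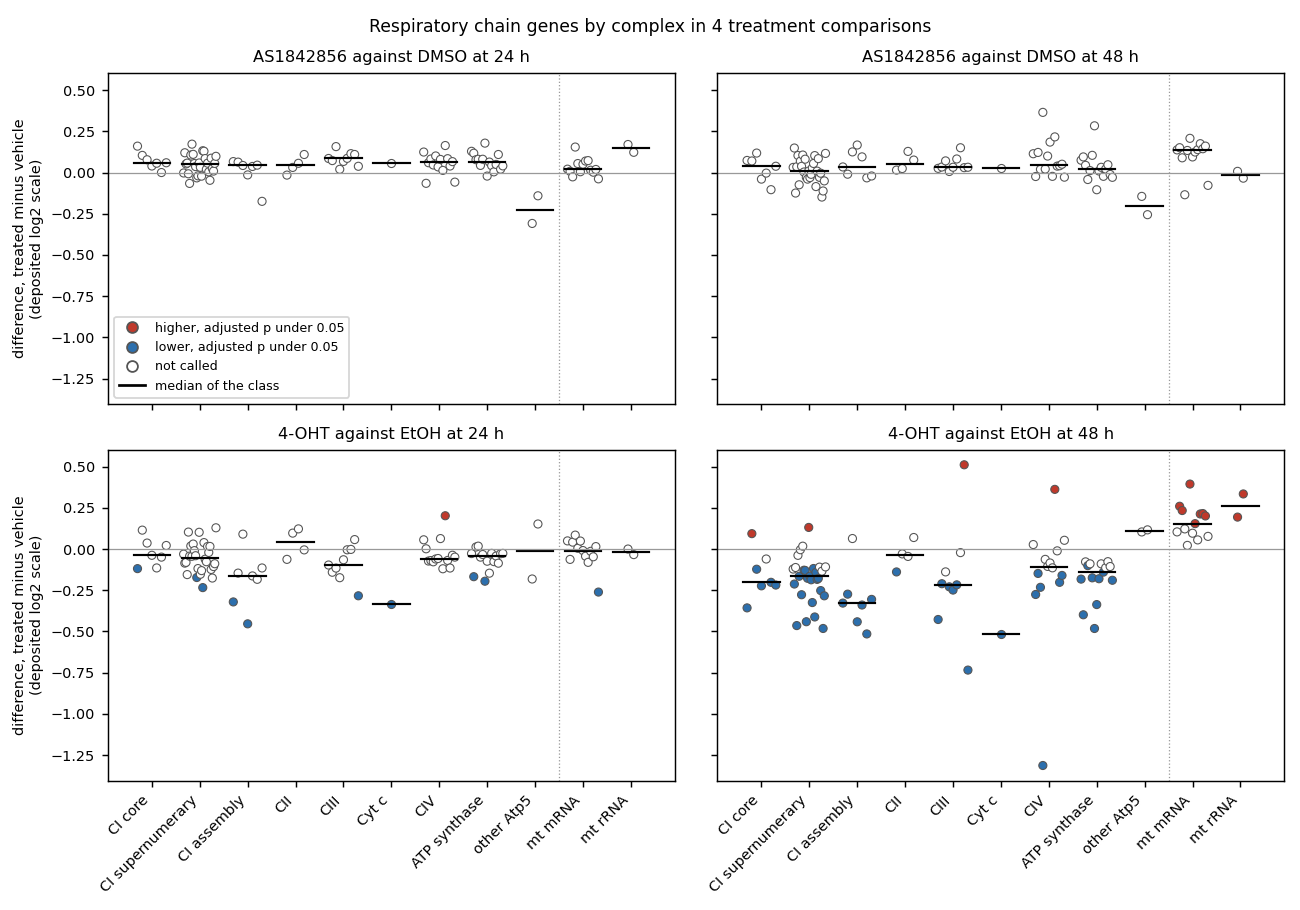
Difference of each of the 102 members on the deposited log2 scale (y axis, treated minus vehicle) by complex (x axis; CI to CIV, complexes I to IV) in 4 comparisons, with 3 libraries a group; filled points passed an adjusted p of 0.05 (blue lower, red higher) and bars are class medians. At 48 h of 4-OHT, 53 nuclear members are blue and 4 red, and 9 mitochondrial members are red.

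Complex I, the NADH dehydrogenase, had 24 of its 35 nuclear subunits lower and 2 higher at 48 h of 4-OHT, with a median difference of -0.17. Counts by class, here and below, stand beside 25.8% of all tested genes lower and 25.0% higher. In the upper range of values these shares were 35.5% and 24.5%. Ndufs1, a large iron-sulfur subunit of the NADH-oxidising arm, had values of 11.26, 11.23 and 11.19 in the 4-OHT libraries, against 11.59, 11.60 and 11.57 in the EtOH libraries. The groups did not overlap, and Ndufs1 fell by 0.36 ± 0.03 (SE, n = 3 each, limma adjusted p = 2.68e-05). Of the other core subunits described, Ndufs7, Ndufv2, Ndufv1 and Ndufs3 fell by 0.12 to 0.22, and Ndufs8 had a difference of -0.06 and was not called.

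Among the supernumerary subunits, which surround the core, 19 of 28 fell and Ndufb11 alone rose. Ndufs5 had values of 10.17, 10.15 and 10.01 in the 4-OHT libraries, against 10.59, 10.58 and 10.60 in the EtOH libraries, and fell by 0.48 ± 0.05 (SE, adjusted p = 4.87e-05). Ndufab1, the mitochondrial acyl carrier protein that is also a complex I subunit, fell by 0.44 ± 0.06 (adjusted p = 0.000207), with libraries at 10.53, 10.42 and 10.38 under 4-OHT and at 10.80, 10.87 and 10.98 under EtOH. Ndufa12 and Ndufb6 fell by 0.46 and 0.41. Ndufb11 rose by 0.13 ± 0.04 (adjusted p = 0.0172), and this call was lost without the second 4-OHT library at 48 h or without the third EtOH library at 48 h, with adjusted p-values of up to 0.0654 over the alternatives.

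The assembly factors of complex I had the lowest median of the multi-gene classes, -0.33, with 6 of 7 lower. Ndufaf4, which acts early in assembly, had values of 9.73, 9.87 and 9.75 in the 4-OHT libraries at 48 h, against 10.23, 10.21 and 10.23 in the EtOH libraries. It fell by 0.44 ± 0.05 (SE, adjusted p = 7.01e-05), and by 0.45 ± 0.04 at 24 h (adjusted p = 0.000173). Ndufaf6 fell by 0.52 ± 0.12 (adjusted p = 0.00764), with 1 of the 4-OHT libraries at 7.59 and the other two at 8.03 and 8.07, against 8.30 to 8.47 in the EtOH libraries. Ndufaf3 was the factor that was not called, with a difference of 0.06 ± 0.07.

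Complex II, the succinate dehydrogenase that also serves the tricarboxylic acid cycle, had 1 of its 4 subunits called. This share of 25% lower was near the 25.8% of all tested genes. Sdha, the flavoprotein, fell by 0.14 ± 0.04 (SE, adjusted p = 0.0158), with 12.33, 12.24 and 12.22 in the 4-OHT libraries at 48 h and 12.44, 12.36 and 12.42 in the EtOH libraries. That call was lost in 3 of 6 fits without 1 library and in the authors' deposited table (adjusted p up to 0.0644 over the alternatives). Sdhb, the iron-sulfur subunit, and the membrane anchors Sdhc and Sdhd had differences of -0.03, -0.04 and 0.07, each with overlapping groups. Whether complex II responded less than the other complexes was not tested.

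Complex III, the cytochrome bc1 complex, held the largest rise among the called members and, after Cox6a2 of complex IV, the largest fall. Uqcrq, a small subunit bound to cytochrome b, had values of 11.18, 11.27 and 11.10 in the 4-OHT libraries at 48 h, against 11.94, 11.92 and 11.89 in the EtOH libraries. It fell by 0.73 ± 0.04 (SE, adjusted p = 2.93e-06), and the authors' deposited table gives a log2 fold change of -1.10, or 0.467 of the EtOH level. Uqcrh, the hinge protein near cytochrome c1, went the other way, with values of 11.79, 11.85 and 11.74 in the 4-OHT libraries against 11.43, 11.21 and 11.22 in the EtOH libraries, a rise of 0.51 ± 0.06 (adjusted p = 0.000121). The EtOH libraries at 24 h had held 11.62 to 11.66 for Uqcrh, above all EtOH libraries at 48 h. The 4-OHT libraries at 48 h lay closer to those 24 h values than to the EtOH libraries at 48 h. Much of the 48 h difference in Uqcrh thus goes with a lower vehicle level. Cyc1, the cytochrome c1 subunit, fell by 0.43 ± 0.04 (adjusted p = 3.31e-05), Uqcrc1, Uqcrc2, Uqcrb and Uqcr10 fell by 0.21 to 0.25, and the iron-sulfur protein Uqcrfs1 had a difference of -0.02 ± 0.04.

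Cytochrome c, the mobile electron carrier that also triggers caspase activation when released, is encoded by Cycs in somatic cells. Cycs had values of 10.69, 10.71 and 10.58 in the 4-OHT libraries at 48 h, against 11.20, 11.16 and 11.18 in the EtOH libraries. The groups did not overlap, the fall was 0.52 ± 0.04 (SE, adjusted p = 1.6e-05), and Cycs had already fallen by 0.33 ± 0.04 at 24 h (adjusted p = 0.000845), a call lost in the fit of all 8 groups (adjusted p = 0.0515). In the AS1842856 arm at 48 h, Cycs ranged from 10.81 to 11.08 in treated libraries and from 10.54 to 11.19 in DMSO libraries, with 1 DMSO library at the low end.

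Complex IV, cytochrome c oxidase, had 6 of 14 nuclear subunits lower (42.9%) and 1 higher. Beside it, 25.8% of all tested genes and 35.5% of those in the upper range of values were lower, so complex IV was not far from the background. Several of its subunits exist as tissue isoforms. Of these pairs, Cox6a1, the ubiquitous form, fell by 0.23 ± 0.04 (SE, adjusted p = 0.00149), and Cox6a2, the heart and muscle form, fell by 1.31 ± 0.17 (adjusted p = 0.000253). Cox6a2 had values of 5.63, 5.54 and 5.73 in the 4-OHT libraries at 48 h, against 6.51, 7.05 and 7.28 in the EtOH libraries, but the EtOH libraries at 24 h had stood at 5.13 to 5.42. The 4-OHT libraries at 48 h thus lay above both groups of the 24 h comparison, and the EtOH libraries at 48 h lay above all others of the series. Cox4i1, Cox6b1, Cox7a1 and Cox7a2 were not called, with differences of 0.03, -0.06, -0.08 and -0.11, and Cox8a fell by 0.16 ± 0.04 (adjusted p = 0.00658). Their partners Cox4i2 and Cox8b were below the minimum and Cox6b2 was listed at 0.

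Cox7a2l, which joins complexes III and IV into supercomplexes, was the 1 complex IV gene that rose. It had values of 12.26, 12.36 and 12.28 in the 4-OHT libraries at 48 h, against 11.90, 11.93 and 11.98 in the EtOH libraries, a rise of 0.36 ± 0.04 (SE, adjusted p = 6.26e-05). It had risen by 0.20 ± 0.04 at 24 h, a call that the authors' deposited table does not share (adjusted p of up to 0.154 over the alternatives).

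The ATP synthase had 9 of 15 subunits lower and none higher, and all 15 had differences below 0. Atp5b, the catalytic beta subunit, had values of 14.50, 14.45 and 14.44 in the 4-OHT libraries at 48 h, against 14.83, 14.86 and 14.90 in the EtOH libraries, and fell by 0.40 ± 0.03 (SE, adjusted p = 1.62e-05). Atp5g1, Atp5g2 and Atp5g3 encode the same mature c subunit of the rotor ring and fell by 0.48, 0.34 and 0.18. Atp5g1 stood at 10.21, 10.20 and 10.01 in the 4-OHT libraries and at 10.74, 10.51 and 10.61 in the EtOH libraries (adjusted p = 0.000489). Atp5s and Atp5sl, which carry the family name but are not subunits of the enzyme (Atp5sl takes part in complex I assembly in human cells), had differences of 0.10 and 0.12 and were not called.

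**Figure D2:**
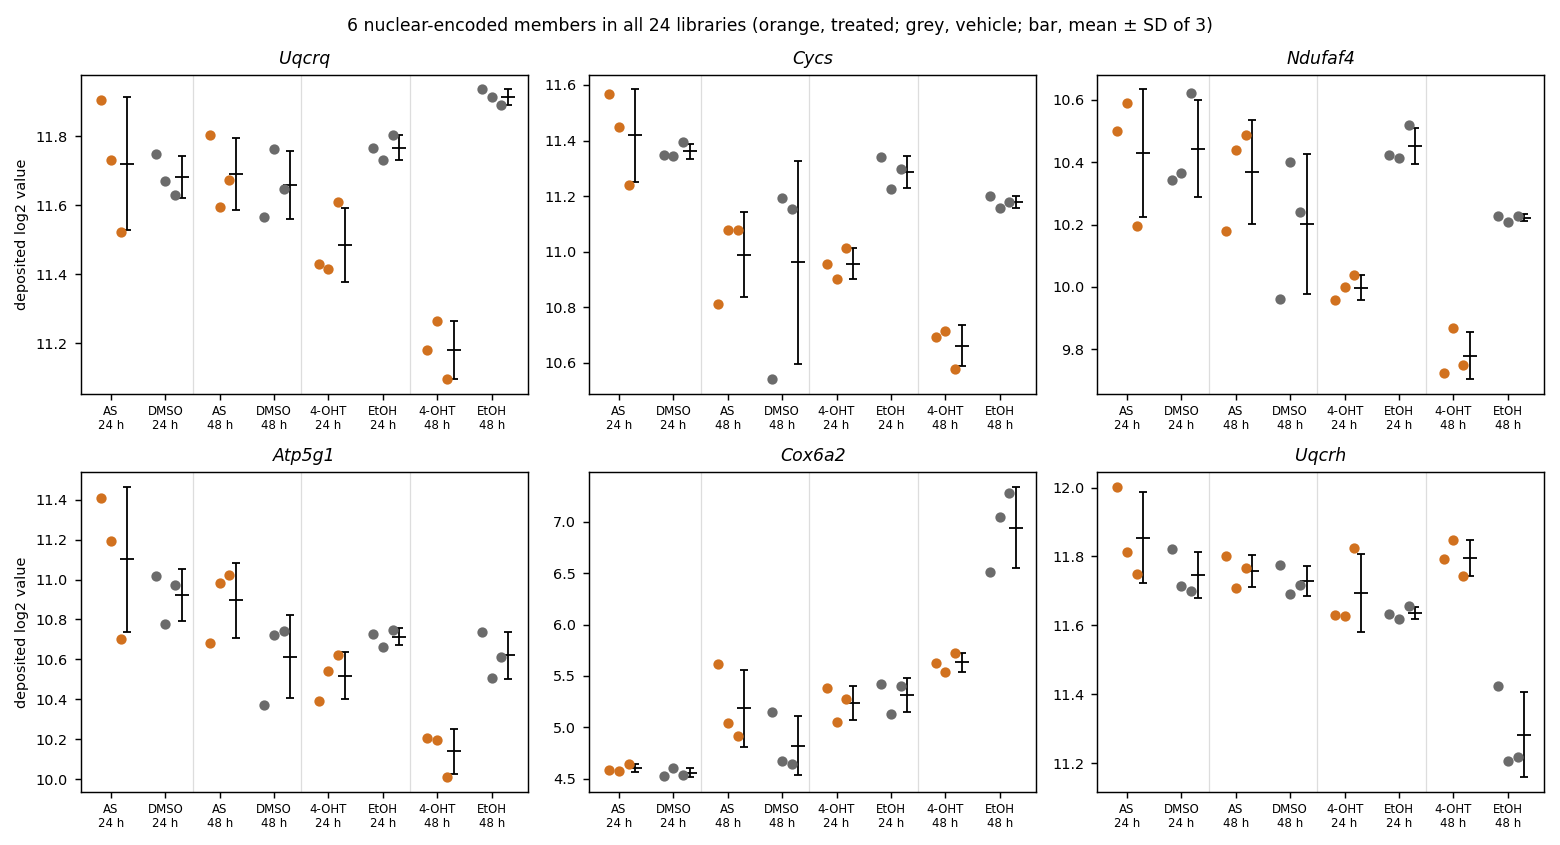
Deposited log2 values (y axis) of 6 nuclear members in the 3 libraries of each of 8 groups (x axis; AS, AS1842856), with the mean ± SD beside the points. Uqcrq, Cycs, Ndufaf4 and Atp5g1 have their lowest group means under 4-OHT at 48 h, while the EtOH libraries at 48 h are the highest for Cox6a2 and the lowest for Uqcrh.

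Over all nuclear members, the 3 libraries of 4-OHT at 48 h lay below the 3 EtOH libraries for 62 of 87 genes and above them for 4, beside 30.1% and 29.6% of all tested genes. Of the 53 nuclear calls, 36 held under each of the 11 alternatives tried, which included leaving out each library, another scaling and the authors' own test. Of the 66 members called in either direction, 51 were also called in the same direction in the authors' deposited table, where 22.2% of these genes were lower and 20.6% higher. Several members, such as Cycs, Uqcrh and Ndufa4, have near-identical processed pseudogenes in the mouse genome, and how reads shared with such copies were counted is not stated in the labels or file headers, which makes their levels less certain.

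Promoter windows from RefSeq (GRCm38.p6), reaching from 250 bases before to 50 bases after the first listed start site, were found for 73 of the 87 nuclear members. Short motifs were counted on both strands. The core of the NRF1 site, GCGCATG, was in 21.9% of the members' windows, beside 7.9% of the windows of 8406 tested genes and 4.0% of all 27025 windows. The ETS site bound by GABPA, CCGGAAG, was in 21.9% of members, beside 20.0% of tested genes and 9.1% of all windows. YY1's AAGATGG was in 13.7% beside 7.8% and 6.5%, the E-box CACGTG in 9.6% beside 10.7% and 7.2%, and the FOXO motif GTAAACA in 4.1% beside 2.4% and 3.5%. Within the members, NRF1 cores were in 10 of the 43 windows of genes that fell at 48 h of 4-OHT and in 6 of the 30 others. ETS sites were in 6 of 43 (14.0%) and 10 of 30 (33.3%), E-boxes in 5 of 43 and 2 of 30, YY1 motifs in 5 of 43 and 5 of 30, and FOXO motifs in 1 of 43 and 2 of 30. None of these splits was tested. A match is a description of letters and not a shown binding site.

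The windows of 4 members are printed because these genes carry the pattern: Cycs, Ndufaf4 and Atp5g1 fell, and Uqcrh rose, each against the EtOH libraries at 48 h. They were chosen after their values were seen. Capitals mark motif matches, in the orientation of the gene, 5′ to 3′. The Cycs window lies at chr6:50566520-50566819 on the minus strand and holds 1 NRF1 core, as its reverse complement. The Ndufaf4 window, chr4:24897833-24898132 on the plus strand, holds 3 NRF1 cores, of which 2 overlap on opposite strands. The Atp5g1 window, chr11:96075582-96075881 on the minus strand, holds 1 E-box. The Uqcrh window, chr4:116075021-116075320 on the minus strand, holds 1 ETS site as its reverse complement.
Cycs: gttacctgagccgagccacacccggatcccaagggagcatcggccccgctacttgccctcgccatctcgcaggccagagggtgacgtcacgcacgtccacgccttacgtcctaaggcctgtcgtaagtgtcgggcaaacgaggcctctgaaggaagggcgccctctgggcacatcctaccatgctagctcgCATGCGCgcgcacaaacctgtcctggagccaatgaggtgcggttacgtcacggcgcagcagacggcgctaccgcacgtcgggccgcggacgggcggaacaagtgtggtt
Ndufaf4: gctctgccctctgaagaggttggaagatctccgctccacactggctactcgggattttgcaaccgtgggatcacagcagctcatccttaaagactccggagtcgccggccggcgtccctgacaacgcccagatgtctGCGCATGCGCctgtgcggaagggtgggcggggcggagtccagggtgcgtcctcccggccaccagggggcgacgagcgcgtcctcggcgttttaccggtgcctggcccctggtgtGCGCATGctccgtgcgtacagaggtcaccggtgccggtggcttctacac
Atp5g1: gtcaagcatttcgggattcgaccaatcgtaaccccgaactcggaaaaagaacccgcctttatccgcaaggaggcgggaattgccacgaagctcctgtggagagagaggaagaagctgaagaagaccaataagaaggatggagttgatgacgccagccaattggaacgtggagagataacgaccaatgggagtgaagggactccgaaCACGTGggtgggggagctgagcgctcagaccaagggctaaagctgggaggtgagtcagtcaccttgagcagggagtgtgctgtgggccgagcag
Uqcrh: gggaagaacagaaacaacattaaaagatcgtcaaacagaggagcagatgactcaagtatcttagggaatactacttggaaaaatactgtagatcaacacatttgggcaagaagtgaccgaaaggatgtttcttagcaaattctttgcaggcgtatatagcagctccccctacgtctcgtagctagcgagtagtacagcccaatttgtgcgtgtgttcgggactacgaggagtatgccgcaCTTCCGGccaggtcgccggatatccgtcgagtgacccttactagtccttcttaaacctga

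The mitochondrially encoded RNAs moved opposite to the nuclear set at 48 h of 4-OHT: all 15 had differences above 0, from 0.02 to 0.39, and 7 of 13 mRNAs and both rRNAs rose. mt-Cytb, the cytochrome b of complex III, had values of 14.81, 14.71 and 14.78 in the 4-OHT libraries, against 14.41, 14.41 and 14.31 in the EtOH libraries, and rose by 0.39 ± 0.04 (SE, adjusted p = 5.92e-05). mt-Rnr2, the large rRNA, stood at 13.09, 12.95 and 12.98 under 4-OHT and at 12.71, 12.62 and 12.69 under EtOH, a rise of 0.33 ± 0.04 (adjusted p = 0.000245). mt-Rnr1, the small rRNA, rose by 0.19 ± 0.04. The other mRNAs that rose were mt-Co1, the catalytic subunit of complex IV (0.23), the complex I subunits mt-Nd2, mt-Nd4, mt-Nd4l and mt-Nd5 (0.15 to 0.22) and mt-Atp8 (0.26). mt-Nd1, mt-Nd3, mt-Nd6, mt-Co2, mt-Co3 and mt-Atp6 were not called, with differences of 0.02 to 0.12. The mean of the 13 mRNAs was 13.80 in the EtOH libraries at 48 h and 13.93 in the EtOH libraries at 24 h. In the 4-OHT libraries it was 13.96 at 48 h and 13.91 at 24 h. Much of the 48 h difference in the mRNAs thus goes with a lower vehicle level.

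Neighbouring mitochondrial mRNAs share bases, which limits how far their reads can be told apart. mt-Atp8 and mt-Atp6 are translated from 1 transcript in different frames and overlap by 43 bases at chrM:7927-7969 (GRCm38, plus strand), shown here because mt-Atp8, at 14.32, 14.28 and 14.19 in the 4-OHT libraries and 14.09, 13.99 and 13.93 in the EtOH libraries at 48 h, was called and mt-Atp6, with a difference of 0.10 ± 0.05, was not.
mt-Atp8 and mt-Atp6 overlap: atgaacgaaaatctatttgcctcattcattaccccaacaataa
mt-Nd4l and mt-Nd4 overlap by 7 bases and both rose. mt-Nd5 and mt-Nd6 overlap by 14 bases on opposite strands, and mt-Nd6 is the 1 mitochondrial member transcribed from the other strand. Since the strand setting of the counting is not stated there, values of mt-Nd6 may hold reads of the opposite strand.

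**Figure D3:**
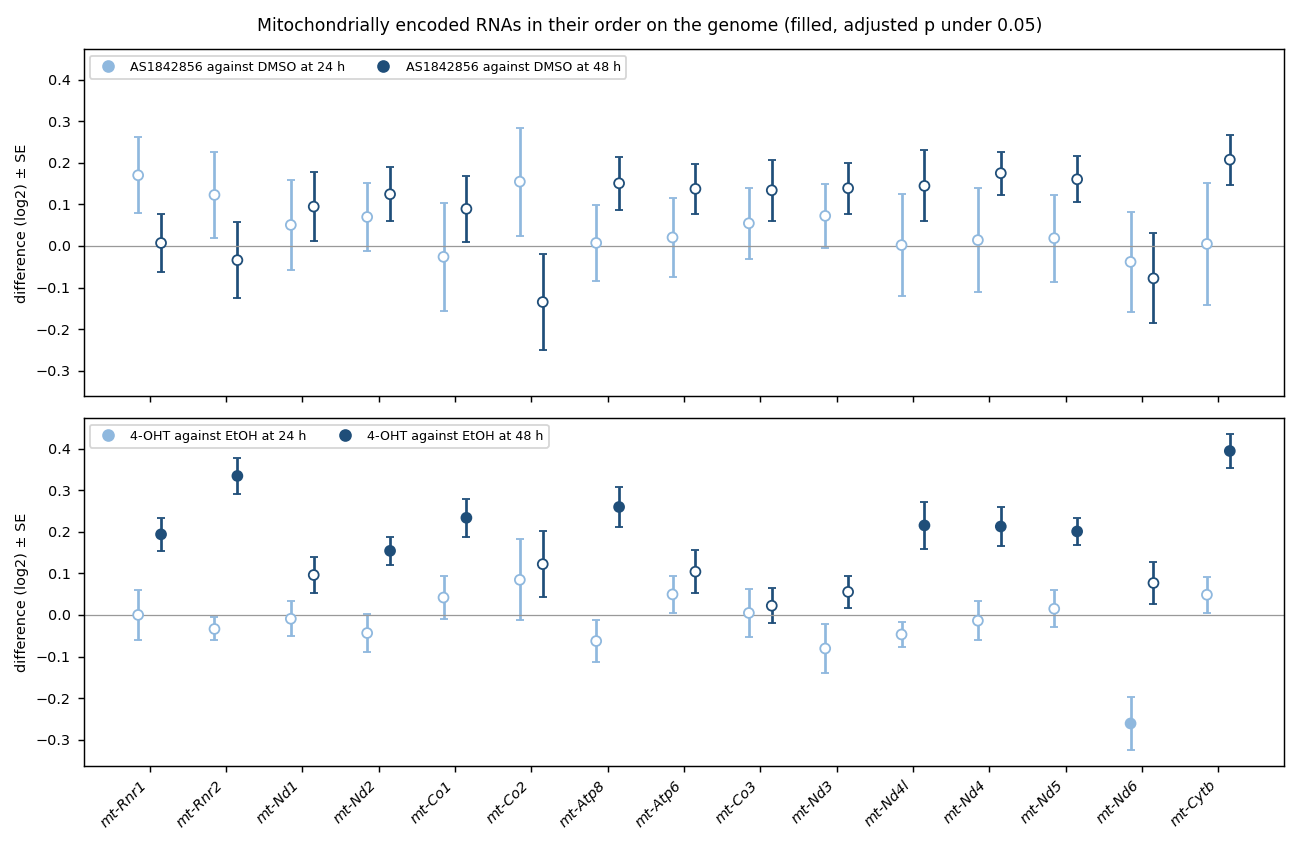
Differences ± SE on the log2 scale (y axis) of the 2 rRNAs and 13 mRNAs of the mitochondrial genome in genome order (x axis), above for AS1842856 minus DMSO and below for 4-OHT minus EtOH; light points, 24 h, dark points, 48 h, filled where adjusted p was under 0.05. At 48 h of 4-OHT 9 of 15 are filled above 0, and at 24 h mt-Nd6 is filled below 0.

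Set against the nuclear members within each library, the mean of the 13 mitochondrial mRNAs exceeded the mean of the 87 nuclear members by 3.55 ± 0.08 in the 4-OHT libraries at 48 h (SD, n = 3; 3.47 to 3.62), against 3.21 ± 0.07 in the EtOH libraries at 48 h (SD, n = 3; 3.13 to 3.27), a difference of 0.34. A shift of all log2 values of a library by the same amount does not move this contrast. The transformation is not named, so whether other scaling would cancel is not known. As a score over chosen genes the contrast was given no test. At 24 h the same quantity was 3.38 ± 0.04 in 4-OHT libraries and 3.34 ± 0.04 in EtOH libraries (SD, n = 3 each). In the compound arm it was 3.20 ± 0.17 under AS1842856 and 3.22 ± 0.11 under DMSO at 24 h, and 3.35 ± 0.08 under AS1842856 and 3.28 ± 0.01 under DMSO at 48 h (SD, n = 3 each). The 4-OHT libraries at 48 h were the highest group of the series, and the EtOH libraries at 48 h lay below the EtOH libraries at 24 h.

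At 48 h the 4-OHT and EtOH libraries differed on both sides of that contrast. The nuclear mean was 10.41 ± 0.05 in 4-OHT libraries and 10.59 ± 0.03 in EtOH libraries at 48 h (SD, n = 3 each), and at 24 h 10.53 ± 0.07 in 4-OHT libraries and 10.59 ± 0.02 in EtOH libraries. The mitochondrial mRNA mean was 13.96 ± 0.04 under 4-OHT and 13.80 ± 0.06 under EtOH at 48 h, and at 24 h 13.91 ± 0.04 under 4-OHT and 13.93 ± 0.05 under EtOH. In the 4-OHT libraries the nuclear mean was lower at 48 h than at 24 h, with an EtOH level that stayed at 10.59. The mitochondrial mRNA mean under 4-OHT was 13.91 at 24 h and 13.96 at 48 h. Under EtOH it was 13.93 and then 13.80. Much of the 48 h difference in the mitochondrial mRNAs thus goes with a lower vehicle level.

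**Figure D4:**
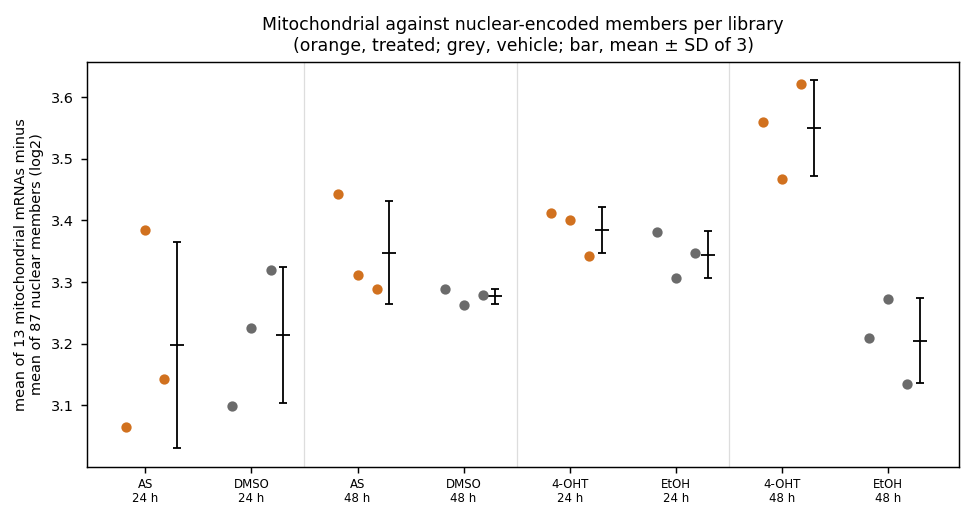
Mean log2 value of the 13 mitochondrial mRNAs minus that of the 87 nuclear members (y axis) in the 3 libraries of each of 8 groups (x axis; AS, AS1842856), with mean ± SD. The 4-OHT libraries at 48 h lie at 3.47 to 3.62 and the EtOH libraries at 48 h at 3.13 to 3.27.

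At 24 h of 4-OHT the nuclear calls were few, 9 lower and 1 higher. The share lower was 10.3%, beside 13.7% of all tested genes lower and 15.7% higher. In the upper range of values, 9.7% of nuclear members fell beside 19.5% of tested genes, so falls were not more frequent than in the background. Ndufaf4, Cycs, Ndufaf1, Uqcrq, Ndufb4, Atp5g1, Ndufab1, Atp5b and Ndufs1 fell, by 0.12 to 0.45, and Cox7a2l rose. Uqcrq had values of 11.43, 11.42 and 11.61 in the 4-OHT libraries, against 11.77, 11.73 and 11.81 in the EtOH libraries, a fall of 0.28 ± 0.05 (SE, adjusted p = 0.00564). Their number depended on 1 library: without the third 4-OHT library at 24 h, 29 nuclear members were called lower, while the fit of all 8 groups together called 3, and 5 were called in the authors' deposited table (9.42% of genes lower and 12.2% higher there). The share of all tested genes called was not computed without that library or in the 8-group fit. The counts of 29 and 3 therefore have no background beside them. Ndufaf4 and Uqcrq were called under each of the 11 alternatives. All 9 nuclear members that fell at 24 h also fell at 48 h. mt-Nd6 fell by 0.26 ± 0.06 (adjusted p = 0.0167), with 10.18, 9.98 and 10.22 in the 4-OHT libraries and 10.42, 10.37 and 10.37 in the EtOH libraries, a call lost without the first EtOH library at 24 h and in the authors' deposited table (adjusted p of up to 0.0847 over the alternatives).

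The response at 48 h minus that at 24 h was tested as a contrast over the 4 groups. In this test 15 nuclear members were lower at 48 h and Uqcrh was higher, and 7 mitochondrial mRNAs and mt-Rnr2 were higher, beside 9.03% of all genes lower and 6.57% higher. The nuclear share lower was 17.2%, beside 13.9% of the tested genes in the upper range of values. Under each of the 16 alternatives, 3 of the 15 lower calls and 1 of the 9 higher calls among the members held. The difference was -0.45 ± 0.07 for Uqcrq, -0.38 ± 0.07 for Ndufs5 and -1.24 ± 0.23 for Cox6a2 (SE, limma adjusted p = 0.00181, 0.00353 and 0.0038). It was 0.45 ± 0.09 for Uqcrh, 0.35 ± 0.06 for mt-Cytb and 0.37 ± 0.05 for mt-Rnr2 (adjusted p = 0.00473, 0.00282 and 0.000828). With all 8 groups in 1 fit, 3 nuclear members were lower and none of the mitochondrial mRNAs was higher, and the adjusted p of mt-Cytb was 0.149 and that of mt-Rnr2 0.0816. The share of all tested genes called in that fit was not computed. Cycs and Ndufaf4, which had fallen at 24 h, had contrasts of -0.19 and 0.01 that were not called.

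AS1842856 changed no member past the threshold at 24 h, where the median of nuclear members was 0.06 beside 0.01 for all genes. There 0 members had an unadjusted limma p under 0.05 and 232 of 11470 genes did, and no call was made among members in the authors' deposited table either (0.0872% of genes higher and 0.0436% lower there). At 48 h, 12 of 102 members had an unadjusted limma p under 0.05, as did 2396 of 11470 genes, none of the members passed adjustment, and none was called in the authors' deposited table, beside 5.61% of genes higher and 7.48% lower. Differences at 48 h ran from -0.26 for Atp5sl to 0.37 for Cox6a2 among nuclear members, with a median of 0.03 beside 0.0047 for all tested genes. Of the 13 mitochondrial mRNAs, 8 had all 3 AS1842856 libraries above all 3 DMSO libraries, beside 13.1% of all genes with treated libraries above and 13.8% with treated libraries below, with a median difference of 0.14. mt-Cytb stood at 14.86, 14.80 and 14.84 in the AS1842856 libraries and at 14.55, 14.69 and 14.64 in the DMSO libraries, a difference of 0.21 ± 0.06 (SE, adjusted p = 0.104).

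Libraries of the same replicate number deviated together in this comparison, with correlations of 0.409, 0.255 and 0.147, and a fit with the replicate number as a block called 6 of 102 members higher and none lower, beside 6.66% of all tested genes higher and 7.54% lower in that same fit. The pooled count of members higher was thus near the background, while the count lower was below it. By genome, the calls were 3 of 87 nuclear members and 3 of 13 mitochondrial mRNAs, a split that was not tested. The members called were Atp5g1 (0.28, adjusted p = 0.00616), Cox6a2 (0.37, adjusted p = 0.0334), the iron-sulfur protein gene Uqcrfs1 (0.15, adjusted p = 0.0391), mt-Cytb (0.21, adjusted p = 0.0338), mt-Nd4 (0.18, adjusted p = 0.0341) and mt-Nd5 (0.16, adjusted p = 0.0385). Atp5g1 had 10.68, 10.98 and 11.03 in the AS1842856 libraries with replicate numbers 1, 2 and 3, against 10.37, 10.72 and 10.74 in the DMSO libraries of the same numbers, higher in 3 of 3 pairs.

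The responses to AS1842856 and to 4-OHT at 48 h differed for a good part of the nuclear set. In the test of the difference between the responses, 33 of 87 nuclear members were higher and 2 lower under AS1842856, beside 18.0% and 19.1% of all genes, and mt-Rnr2 was lower while no mitochondrial mRNA was called. The share higher was 37.9% of nuclear members, beside 24.1% of the tested genes in the upper range of values. Of the 33 higher calls, 19 held under each of the 16 alternatives, and all 3 lower calls among the members did. Uqcrq had a difference of 0.03 under AS1842856 and of -0.73 under 4-OHT, so that the responses differed by 0.77 ± 0.09 (SE, adjusted p = 5.29e-05). Atp5g1 had 0.28 under AS1842856 and -0.48 under 4-OHT, a difference of 0.77 ± 0.16 (adjusted p = 0.00259). Cycs had 0.03 under AS1842856 and -0.52 under 4-OHT, a difference of 0.54 ± 0.19 (adjusted p = 0.0435, close to the threshold). The response of Cox6a2 was 0.37 under AS1842856 and -1.31 under 4-OHT, a difference of 1.68 ± 0.30 (adjusted p = 0.00109). These 4 genes thus stood lower after 4-OHT than after AS1842856, each relative to its vehicle. Uqcrh differed by -0.48 ± 0.08 (adjusted p = 0.000677), with 0.03 under AS1842856 and 0.51 under 4-OHT. Atp5sl differed by -0.37 ± 0.10 (adjusted p = 0.0129), with -0.26 under AS1842856 and 0.12 under 4-OHT. By complex, 15 of 35 complex I subunits, 4 of 7 complex I assembly factors, 4 of 9 complex III subunits, 5 of 14 complex IV subunits, 4 of 15 ATP synthase subunits and none of the 4 complex II subunits were higher under AS1842856. The agents, doses and vehicles of the arms differ.

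**Figure D5:**
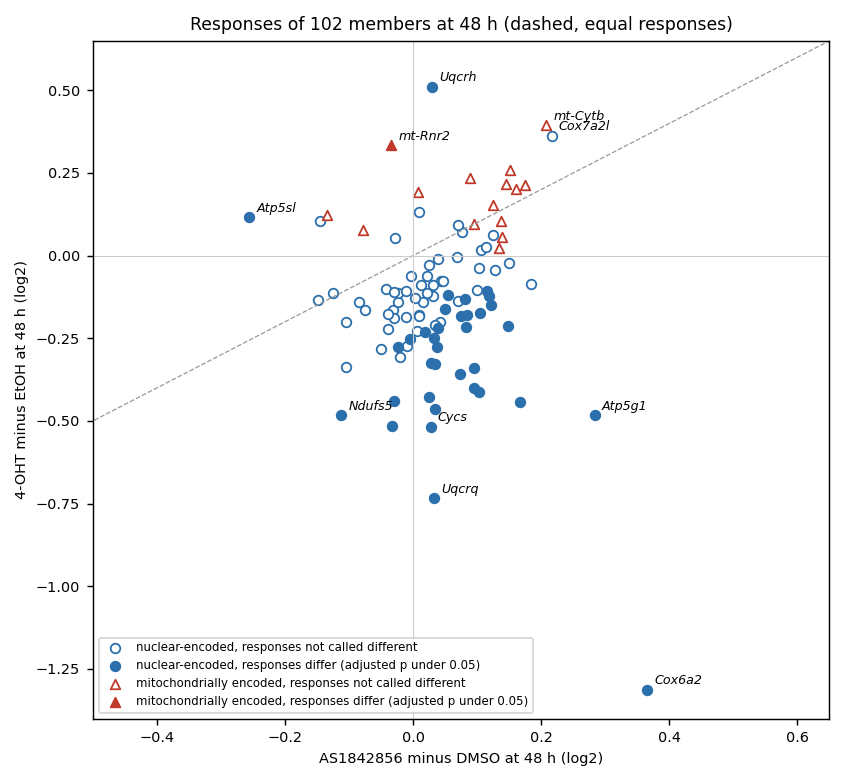
Responses of the 102 members at 48 h on the log2 scale, AS1842856 minus DMSO on the x axis and 4-OHT minus EtOH on the y axis; circles, nuclear members, triangles, mitochondrial members, filled where the test of the difference between responses passed an adjusted p of 0.05. Most filled circles lie below the dashed line of equal responses, with Uqcrh and Atp5sl above it.

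Genes that serve the chain without being members were counted from lists drawn up with earlier results of these data known. The counts at 48 h of 4-OHT stand beside 25.8% of all tested genes lower and 25.0% higher. Of the lists, 16 of 36 assembly factors of the complexes outside the families fell and 1 rose, among them Cox18 (-0.51) and Cox17 (-0.34), which help to build complex IV, and Bcs1l (-0.39), which inserts the iron-sulfur protein of complex III. In coenzyme Q and heme synthesis 8 of 17 fell and 2 rose, with Coq2 at -0.39 and Hccs, which attaches heme to cytochrome c, at -0.31. In the tricarboxylic acid cycle and pyruvate entry 12 of 19 fell and 1 rose, with Dlat at -0.37 and Mdh2 at -0.29, while Idh2 rose by 0.14. The median differences were -0.17, -0.20 and -0.18 for these lists, beside -0.16 for nuclear members.

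Genes that act on mitochondrial DNA and RNA were counted as well, beside the same 25.8% of all tested genes lower and 25.0% higher at 48 h of 4-OHT. For maintenance and transcription of mitochondrial DNA, 3 of 15 fell and 1 rose, namely Tefm (-0.58), the transcription elongation factor, Top1mt (-0.50), Ssbp1 (-0.21) and Mterf2 (0.27), so this list was near the background. For processing and stability of mitochondrial RNA, 14 of 19 fell and none rose. Lrpprc, which stabilises mitochondrial mRNAs, had 11.05, 11.02 and 10.97 in the 4-OHT libraries at 48 h, against 11.52, 11.47 and 11.50 in the EtOH libraries (-0.48 ± 0.03, SE, adjusted p = 7.33e-06), and Elac2, which trims mitochondrial tRNA ends, fell by 0.45. These falls stood beside mitochondrial mRNAs of which none fell.

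Of 15 tested regulators of nuclear respiratory genes, 7 fell and 3 rose at 48 h of 4-OHT, beside 25.8% of all tested genes lower and 25.0% higher. Foxo1 itself (-1.97), whose alleles 4-OHT serves to cut, is counted among the 7, so its fall was set by the design. Pprc1, a coactivator of NRF1, fell by 0.61, Nrf1 by 0.25, the nuclear receptor gene Esrra by 0.18 and Myc by 0.66, and Sp1 rose by 0.49. Sp1 had fallen by 0.63 at 24 h of 4-OHT (adjusted p = 0.00088), with an EtOH level of 12.07 to 12.21 at 24 h and of 11.46 to 11.79 at 48 h. Under AS1842856 at 48 h, Myc fell by 0.63 and Gabpa by 0.24, and Esrra rose by 0.41. Myc was thus called lower in both arms at 48 h, with 12.41, 12.40 and 12.37 in the 4-OHT libraries against 13.09, 13.04 and 13.03 in the EtOH libraries, and with 12.04, 12.26 and 12.25 in the AS1842856 libraries against 12.80, 12.84 and 12.80 in the DMSO libraries.

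Some values moved together with the 4-OHT changes at 48 h, and their part in them was not tested. The nuclear-retained RNAs Malat1 and Neat1 rose by 0.62 and 1.00 at 48 h of 4-OHT, alongside the mitochondrial RNAs. They belong to a list of signs of RNA selection and library make-up, which also holds both mitochondrial rRNAs. Of its 9 tested RNAs 4 were higher and 0 lower, beside 25.0% of all tested genes higher. Rn7sk, Rpph1, Hist1h1b, Hist1h2ae and Hist1h4d were not called, with differences of 0.28, 0.08, 0.13, 0.04 and -0.05. Of 11 myeloid markers 3 passed the minimum and all 3 rose (Lyz2, Cx3cr1 and Csf1r), with a summed level of 7.73 to 7.91 in 4-OHT libraries against 6.82 to 7.14 in EtOH libraries, while Elane, Ly6g, S100a8 and S100a9 were listed at 0. Of 8 stromal and endothelial markers Pecam1 alone passed, and it rose by 1.26. Col1a1, Col1a2, Cdh5, Lepr, Cxcl12 and Pdgfrb were below the minimum and Col3a1 was listed at 0. The summed level, 10.63 to 10.71 in 4-OHT libraries against 9.37 to 9.52 in EtOH libraries, is therefore mostly Pecam1 and no second sign. Of 10 T and NK cell markers 1 passed and was not called, the sum being 5.40 to 5.46 in 4-OHT libraries against 5.16 to 5.19 in EtOH libraries, with Cd4 and Ncr1 listed at 0. Of 8 erythroid markers none passed, the sum being 1.83 to 1.91 in 4-OHT libraries against 1.85 to 1.86 in EtOH libraries, with the globin genes at 0. B-lineage markers summed to 16.70 to 16.77 in 4-OHT libraries against 16.34 to 16.46 in EtOH libraries, with 6 of 13 higher and 2 lower. At 24 h of 4-OHT, Neat1 (0.63), Lyz2 (0.86), Cx3cr1 (0.49), Csf1r (0.30) and Pecam1 (0.59) were already called higher. Malat1 (-0.28) was not called then, and 4 of 13 B-lineage markers were higher and 6 lower. Among all tested genes, 15.7% were higher and 13.7% lower at 24 h.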

How the data were processed

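RNA from 24 libraries in 8 groups of 3 was profiled by RNA-seq. The deposited per-library columns hold normalised log2 expression, as their range shows, and the transformation is not named in the headers. Test statistics (a score) and p-values in the authors' deposited tables belong to their own comparisons and were used as an alternative. The submitters' processing notes name STAR 2.7.11b, Salmon 1.1.1, DESeq2 1.44.0 and mm10, without their roles. Neither the counting rule nor its strand setting is given in the sources used here. Depth is unknown.

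Genes with a mean log2 value of at least 3.46 (the log2 of 10 plus 1) were tested with limma 3.58.1 (R 4.3.3), within the 2 groups compared. The tests used trended variance moderation and Benjamini-Hochberg adjustment at 0.05 over all 11470 genes. Since the transformation is not named, the minimum cannot be equated with a normalised count of 10. The contrasts of responses used the 4 groups involved. The self-test ran on simulated data. Figures were drawn with Python 3.11.15 and matplotlib 3.10.9. Mitochondrial positions came from GENCODE M21 (GRCm38), and promoter windows from RefSeq (GRCm38.p6), whose build matches the named one.

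The text names, per treatment comparison and class, the called member with the smallest adjusted p in each direction; over all members the 5 largest rises and falls among calls; in each contrast of responses the 3 largest calls each way; and always Cycs, Cyc1, complex II, the mitochondrial RNAs and the isoform pairs of complex IV. Other genes were named after their values were seen. A member called by this rule is not reported here by name. The members and lists were chosen with earlier results of these data known.

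Replicate numbers were treated as pairing only for AS1842856 at 48 h, where deviations from the group means correlated within each number (0.409, 0.255 and 0.147). Alternatives were no filter, a median over members or only members of higher values for the mitochondrial minus nuclear difference, another scaling, 1 fit of all 8 groups, the replicate block, the authors' test and leaving out each library.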

Additional observations from a re-analysis of the deposited data

Results flagged for a closer look

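The following members responded differently in a test of the difference itself (limma contrasts, with the adjusted p given beside the values above). Between the 4-OHT responses at 48 h and 24 h, the difference was -1.24 for Cox6a2, -0.38 for Ndufs5, -0.45 for Uqcrq, 0.45 for Uqcrh, 0.35 for mt-Cytb and 0.37 for mt-Rnr2. Between the AS1842856 and the 4-OHT responses at 48 h, it was 0.77 for Atp5g1, 1.68 for Cox6a2, 0.77 for Uqcrq, -0.48 for Uqcrh, -0.37 for Atp5sl and -0.37 for mt-Rnr2 (adjusted p = 0.018). For Cox6a2 and Uqcrh the EtOH libraries at 48 h stood apart from the EtOH libraries at 24 h. The mean of the 13 mitochondrial mRNAs in the EtOH libraries was also lower at 48 h (13.74 to 13.83) than at 24 h (13.88 to 13.97). For the 2 rRNAs the EtOH means were 12.43 to 12.52 at 48 h and 12.53 to 12.59 at 24 h. The part of these vehicle shifts in both contrasts was not tested.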

How the results depend on the processing

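No called member picked by its adjusted p or size reversed its direction under any alternative. Over 38 such results, 443 recomputed values kept their side of the threshold and 35 lost it. Genes that the rule always names were not counted here unless they were also picked in that way. At 48 h of 4-OHT, leaving out 1 library gave 42 to 51 nuclear members lower, 2 to 4 higher, and 7 to 8 mitochondrial mRNAs higher. At 24 h of 4-OHT, nuclear members lower numbered 14 after rescaling, 3 with all 8 groups in 1 fit and 5 in the authors' deposited table, and 6 to 29 without 1 library (29 without the third 4-OHT library). Nuclear members higher at 24 h numbered 0 in the 8-group fit and in the authors' table and 1 to 3 without 1 library, and mitochondrial mRNAs lower 0 in both and 0 to 1. Under AS1842856 at 48 h, the replicate block called 3 nuclear members and 3 mitochondrial mRNAs higher, and nuclear members higher numbered 0 to 1 without 1 library. The block moved no other count by over 1.5 times. For the AS1842856 minus 4-OHT responses, nuclear members numbered 21 to 34 higher and 2 to 2 lower without 1 library, and mitochondrial mRNAs lower 1 after rescaling and 0 to 1 without 1 library. For the 48 h minus 24 h responses, nuclear members higher numbered 2 after rescaling and 1 to 2 without 1 library, nuclear members lower 3 in the 8-group fit and 10 to 18 without 1 library, and mitochondrial mRNAs higher 0 in the 8-group fit and 3 to 7 without 1 library. The mitochondrial minus nuclear difference ranged, without 1 library, from -0.11 to 0.05 (AS1842856, 24 h), 0.02 to 0.10 (AS1842856, 48 h), 0.02 to 0.06 (4-OHT, 24 h) and 0.31 to 0.39 (4-OHT, 48 h). The cause of these shifts was not tested. Shares of all tested genes were computed for the authors' test and for the block under AS1842856 at 48 h. They were not computed for the other alternatives, so those counts have no background beside them. Without counts, how depth limits low members such as Cox6a2 cannot be given.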
